A study of Mus musculus with 6 samples.

Results

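Secreted and cell-surface inhibitors of WNT signalling were followed across the stromal cells of the mouse gut. The 9 genes were Dkk2, Dkk3, Sfrp1, Sfrp2, Sfrp4, Frzb, Wif1, Apcdd1 and Notum, taken by symbol from the 33697 genes in the count tables, and each was found once. Cells came from Flare-TSLP mice, in which the gene of the cytokine TSLP also drives the fluorescent protein tdTomato, made in C57BL/6 embryonic stem cells. Live tdTomato+ cells were sorted from the lamina propria, the connective tissue under the gut epithelium, after removal of epithelium and Peyer's patches. Stromal cells outside that gate were not analysed here, and the libraries also held 80 to 525 immune-like cells each. There were 2 libraries of the proximal small intestine (proximal jejunum), 2 of the distal small intestine (distal ileum), 1 of the cecum and 1 of the large intestine. The labels name no treatment and set the groups apart by region of gut alone. The age range for pooled experiments was 8 to 12 weeks, with both sexes used, and no age was given for each library. Each library carried 3 hashtags (antibody barcodes that tell pooled cell suspensions apart), with no label tying a hashtag to a mouse, so libraries were the replicates and p-values measured only the spread between libraries, which may be partly technical.

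WNT proteins are lipid-carrying ligands that bind Frizzled receptors with the co-receptors LRP5 and LRP6, and in the gut they keep stem cells dividing at the crypt base. Sfrp1, Sfrp2, Sfrp4 and Frzb encode secreted Frizzled-related proteins, which bind WNTs outside the cell, and Wif1 encodes another secreted WNT-binding protein. Dkk2 belongs to the Dickkopf family, which blocks the LRP co-receptors, and Dkk3 is a divergent member of that family. Apcdd1 encodes a membrane protein that binds WNT and LRP, and Notum encodes an enzyme that removes the lipid from WNTs. Fibroblasts around the crypts are a main source of WNTs and of the R-spondins that amplify their signal, while those nearer the villus make more BMPs.

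The genes lie on the mouse GRCm39 assembly in the GENCODE annotation as follows, each coordinate covering the whole gene with its exons and introns. Dkk2 is on the plus strand of chr3:131790336-131886065 and Sfrp2 on the plus strand of chr3:83673481-83681623. Sfrp1 is on the plus strand of chr8:23901263-23939648, Sfrp4 on the plus strand of chr13:19807274-19817164 and Wif1 on the plus strand of chr10:120869865-120936555. Frzb is on the minus strand of chr2:80242313-80278304, Dkk3 on the minus strand of chr7:111712904-111758760 and Notum on the minus strand of chr11:120541446-120552019. No annotated gene overlaps a member on its own strand, and Dkk2, Sfrp2, Frzb and Notum each overlap 1 or more genes on the other strand.

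The sequence just before the start of transcription is shown for Dkk2 and Sfrp1, which were lower in trophocyte-like cells of the large bowel than of the small intestine, and for Wif1 and Notum, which were each found in few cell classes. The windows lie upstream of the canonical start of the gene, 250 bases for Sfrp1, Wif1 and Notum, and the nearest 200 bases for Dkk2, which clears the first exon of a longer Dkk2 transcript. All are read 5′ to 3′ on the gene's strand, and capitals mark the core CTTTGA (or TCAAAG, its reverse complement) bound by TCF and LEF factors, which act at the end of the WNT pathway.
Dkk2, chr3:131790843-131791042, plus strand: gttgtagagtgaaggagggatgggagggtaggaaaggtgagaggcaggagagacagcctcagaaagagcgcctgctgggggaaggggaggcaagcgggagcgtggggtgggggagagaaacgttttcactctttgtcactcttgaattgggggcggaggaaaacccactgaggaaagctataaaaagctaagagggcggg
Sfrp1, chr8:23901013-23901262, plus strand: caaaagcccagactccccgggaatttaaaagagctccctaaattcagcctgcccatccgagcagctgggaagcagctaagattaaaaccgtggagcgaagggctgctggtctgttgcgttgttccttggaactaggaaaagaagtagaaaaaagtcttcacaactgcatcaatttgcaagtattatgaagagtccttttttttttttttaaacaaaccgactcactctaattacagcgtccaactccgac
Wif1, chr10:120869615-120869864, plus strand: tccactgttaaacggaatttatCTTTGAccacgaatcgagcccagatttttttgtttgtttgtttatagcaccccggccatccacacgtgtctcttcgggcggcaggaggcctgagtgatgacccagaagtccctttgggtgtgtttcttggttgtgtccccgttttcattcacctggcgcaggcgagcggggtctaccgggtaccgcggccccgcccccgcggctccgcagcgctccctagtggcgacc
Notum, chr11:120552020-120552269, minus strand: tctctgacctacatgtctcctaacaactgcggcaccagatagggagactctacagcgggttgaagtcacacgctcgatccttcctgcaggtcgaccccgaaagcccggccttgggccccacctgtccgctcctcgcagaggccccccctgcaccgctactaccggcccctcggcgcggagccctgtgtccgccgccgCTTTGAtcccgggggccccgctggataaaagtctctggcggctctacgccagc
The core was present in the windows of Wif1, starting 228 bases upstream, and of Notum, starting 53 bases upstream, and in none of the other 6 members searched over 250 bases. Of 21757 protein-coding genes with such a window, 3071 (14.1%) held it. A match is a description of the letters and says nothing of binding. The window of Apcdd1 was not searched here.

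After filtering, 11174 to 19073 cells per library were kept, from libraries of 109675337 to 206827504 gene UMIs (unique molecular identifiers, each marking 1 captured RNA molecule), with medians of 6606.5 to 9233 UMIs per cell. The unit of a level is CPM, which scales a gene's UMIs to 1000000 gene UMIs of the class and library. They come from 3′ ends and are not scaled for length, so they compare cells and not genes. Classes were gated on marker genes, none of which is a member, and are named "-like" after their markers. Trophocyte-like cells (Cd81, Grem1, Ackr4) stand for fibroblasts near the crypts, Adamdec1 fibroblast-like cells for lamina propria fibroblasts, and SEMF-like cells (Foxl1, Agt, Procr) for the subepithelial fibroblasts that include telocytes. VTT-like cells (Sox6, Lgr5) stand for villus tip telocytes, universal fibroblast-like cells (Pi16, Dpp4) for adventitial fibroblasts, and Ptn fibroblast-like cells (Ptn, Scg2) are a small further class. Lymphatic endothelial-like (LEC-like) and immune-like cells served as the reference for background. Their gates did not exclude cells that also held fibroblast markers, so their levels may include doublets as well as free RNA. Over the small intestinal libraries Sfrp1 averaged 272 CPM in immune-like and 101 in LEC-like cells, and the part of doublets was not tested.

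Some gates did not select the same cells in all regions. In the large bowel, cells passing the Adamdec1 gate nearly lacked its marker Vwc2, at 3.74 CPM in cecum and 0.263 in large intestine against 249 to 412 in the small intestine. Those cells also held Wnt4, a WNT ligand, at 319 CPM in cecum and 134 in large intestine, against a mean of 3.29 ± 0.52 (SD, n = 4) in the small intestine. Grem1, which marks trophocytes, was at 1599 to 2015 CPM in small intestinal trophocyte-like cells, 176 in cecum and 961 in large intestine. The paper found trophocytes mainly in its small intestinal samples. With one marker more required, 315 of 2114 trophocyte-like cells were left in cecum and 395 of 841 in large intestine. In the small intestinal libraries 820 to 3140 were left of 1042 to 3630. In the large bowel, trophocyte-like thus names the gate only. The large bowel has no villi, and cells there that passed the VTT gate had Lgr5 at 9.21 and 2.04 CPM against 124 to 650, so they are called Sox6-high cells below. In the fibroblast classes the 8 LEC markers summed to at most 182 CPM, the 7 epithelial markers to at most 25.8 and the 8 immune markers to at most 107, other than 748 in Ptn fibroblast-like cells. Markers of 2 other lineages stood higher. The 7 pericyte markers summed to 967 to 1594 CPM in small intestinal Adamdec1 fibroblast-like cells, 75.9 in cecum and 117 in large intestine. They reached 4641 in Ptn fibroblast-like cells, and the 8 myofibroblast markers reached 2940 in VTT-like cells. Pairs of libraries shared 38 to 118 cell barcodes, and 4.91% to 11.4% of cells were removed as doublets.

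**Figure D1:**
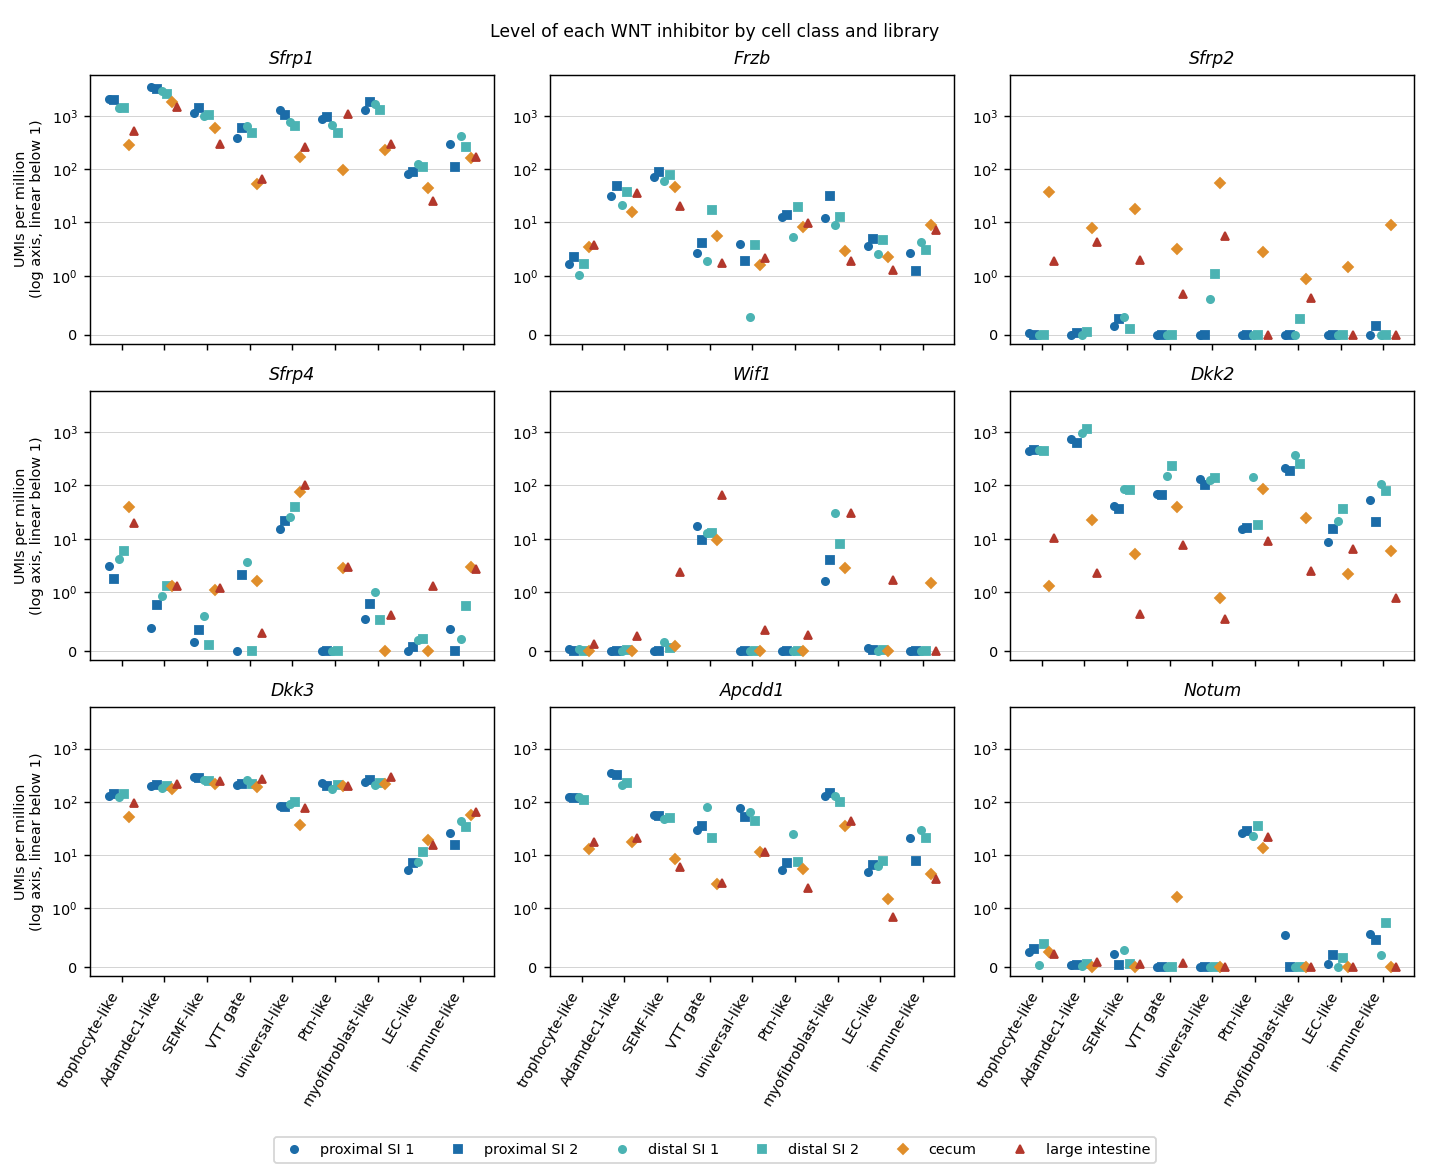
CPM (vertical log axis, linear below 1) of each of the 9 genes in 9 cell classes (horizontal axis), with 1 point per library coloured by region and shaped by replicate. Dkk3 stood above the LEC-like and immune-like cells in every fibroblast class of the small intestine, Notum stood high in Ptn fibroblast-like cells, and Sfrp2 stood above 1 mainly in the cecum and large intestine.

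Sfrp1 was highest in Adamdec1 fibroblast-like cells, at 3430 and 3189 CPM in the proximal and 2918 and 2633 in the distal small intestinal libraries. In trophocyte-like cells it was 2115 and 1962 in the proximal and 1410 and 1407 in the distal libraries. In SEMF-like cells it was 1133 and 1410, and 986 and 1050. The Adamdec1 range lay above the trophocyte range in the small intestine, while trophocyte and SEMF values met at 1410. Myofibroblast-like cells, at 1525 ± 278 (SD, n = 4), lay near trophocyte-like cells at 1723 ± 369 within their spread, followed by universal fibroblast-like cells at 944 ± 288, Ptn fibroblast-like cells at 748 ± 214 and VTT-like cells at 528 ± 118. Neighbours in this lower run also lay within their spread. LEC-like cells held 82.6 to 124 and immune-like cells 108 to 425 in the small intestine, so levels of that size cannot be read as expression. VTT-like cells, at 388 to 652, overlapped the immune-like range over libraries, but lay above the immune-like cells of their own library in each. Their means were 490 in the proximal and 567 in the distal libraries, against 201 and 344 in immune-like cells. In the large bowel, Sox6-high cells (52.4 and 64.8) and Ptn fibroblast-like cells of the cecum (96.8) lay below the immune-like cells there (164 and 172), while Ptn fibroblast-like cells of the large intestine, at 1085, lay above them.

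Frzb followed another order, with its highest levels in SEMF-like cells, at 71.7 and 86.9 CPM in the proximal and 60.3 and 79.2 in the distal libraries. Adamdec1 fibroblast-like cells held 31.7, 47.7, 21.3 and 38.0 in the same libraries. These ranges did not overlap. Trophocyte-like cells, at 1.01 to 2.23, were at or below the 2.61 to 5.00 of LEC-like cells and are read as background. With every cell thinned to 2500 UMIs, 13% to 19.7% of SEMF-like cells had a Frzb UMI, against 0.288% to 0.518% of trophocyte-like and 0.621% to 1.26% of LEC-like cells. Unthinned, the SEMF-like share was 33.1% to 56.8%.

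Sfrp2 was nearly absent from the small intestine. Trophocyte-like cells held 1 Sfrp2 UMI over all 4 small intestinal libraries, 570 UMIs (36.6 CPM) in cecum and 17 UMIs (1.93 CPM) in large intestine. In universal fibroblast-like cells the mean was 0.418 ± 0.517 CPM (SD, n = 4) in the small intestine, 55.7 in cecum and 5.62 in large intestine. SEMF-like cells held 0.104 to 0.295 in the small intestine, 18.0 in cecum and 1.95 in large intestine. The cecum was highest in each of these classes, and no small intestinal library overlapped either large bowel library. Immune-like cells of the cecum held 8.84 CPM on 6 UMIs, more than the 7.85 of Adamdec1 fibroblast-like cells there, so the latter level is read as background.

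Sfrp4 was highest in universal fibroblast-like cells, at 15.0 and 21.3 CPM in the proximal and 26.1 and 39.9 in the distal libraries, 76.7 in cecum and 101 in large intestine. In trophocyte-like cells it was 3.04, 1.75, 4.10 and 5.84 in the small intestine, 38.6 in cecum and 19.5 in large intestine. In both classes the large bowel libraries lay above every small intestinal one. SEMF-like, Adamdec1 fibroblast-like and LEC-like cells of the small intestine held at most 1.28.

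Wif1 was found in VTT-like cells, at 17.5, 9.27, 13.1 and 12.7 CPM in the small intestine, which rest on 20, 9, 7 and 6 UMIs. In the Sox6-high cells of the large bowel it was 9.61 in the cecum and 67.5 (1757 UMIs in 2508 cells) in the large intestine. Myofibroblast-like cells held 1.62, 4.01, 29.9 and 7.89 in the small intestine, where distal replicate 1 stood apart, 2.85 in cecum and 30.3 in large intestine. The 8 myofibroblast markers summed to 2130 to 2940 CPM in small intestinal VTT-like cells, 408 to 520 in SEMF-like cells and 11293 to 19016 in myofibroblast-like cells. Of these markers, Cnn1 was at 0 and Hhip at 3.09 to 18.3 CPM in VTT-like cells (2237 to 4963 in myofibroblast-like cells). The myofibroblast gate required Hhip, and cells passing it were kept out of the VTT class, so the Hhip contrast was partly set by the gates. No other small intestinal fibroblast class exceeded 0.148 CPM of Wif1. After thinning, 1.96% to 5.13% of small intestinal VTT-like cells and 12% of Sox6-high cells of the large intestine had a Wif1 UMI, against at most 0.016% of small intestinal and 0.375% of large bowel LEC-like cells.

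Dkk2, which blocks the LRP co-receptors, was highest in Adamdec1 fibroblast-like cells, at 744 and 616 CPM in the proximal and 952 and 1132 in the distal libraries. The cecum held 22.5 and the large intestine 2.28 in this class. In trophocyte-like cells it was 447, 466, 463 and 451 in the small intestine, 1.28 in cecum and 10.3 in large intestine. All small intestinal libraries lay far above both large bowel libraries in each of these classes. Universal fibroblast-like cells came to 126 ± 16.7 (SD, n = 4) and myofibroblast-like cells to 256 ± 80.4 in the small intestine. The universal fibroblast-like range of 102 to 140 met the immune-like one of 20.3 to 107 over libraries. Within each library universal fibroblast-like cells stood higher. Ptn fibroblast-like cells were at 15.1, 15.7, 143 and 18.1, with distal replicate 1 apart from the others, and at 85.7 in cecum (31 UMIs in 62 cells) and 8.93 in large intestine. The cecal value lay above 3 of the 4 small intestinal ones, each of those 3 below the immune-like cells of its own library. With those levels at background, the separation of small and large bowel cannot be judged in this class. Among cells with a single hashtag, each of the 3 hashtags of every small intestinal library held 545 to 1419 CPM in Adamdec1 fibroblast-like cells, and each of those of the large bowel held at most 29.9.

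In SEMF-like cells Dkk2 was 41.9, 36.2, 86.5 and 82.0 CPM in the small intestine. Immune-like cells of the same libraries held 54.2, 20.3, 107 and 79.6, and barcodes with at most 100 UMIs, which hold free RNA, held 254, 187, 489 and 383. Levels of these low barcodes give the make-up of free RNA and not how much of it a cell holds. Set against immune-like cells of the same library, the SEMF-like level was lower in replicate 1 and higher in replicate 2 of both regions. It is thus not told apart from that background. LEC-like cells held less than SEMF-like cells, at a mean of 11.8 in the proximal and 29.1 in the distal libraries. After thinning, 3.77% to 9.73% of SEMF-like cells had a Dkk2 UMI, against 2.29% to 14.2% of immune-like cells. The share was 53.4% to 76.3% of Adamdec1 fibroblast-like and 41.3% to 46.4% of trophocyte-like cells, with 1.77% to 4.84% of LEC-like cells. Unthinned, these came to 74.7% to 92.0%, 61.5% to 68.7% and 4.18% to 9.44%. In the large bowel the thinned share was at most 3.46% in Adamdec1 fibroblast-like and 1.19% in trophocyte-like cells, where LEC-like cells reached 1.12%.

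Dkk3 was the most even of the 9 across fibroblast classes and regions. SEMF-like cells held 289, 279, 251 and 250 CPM in the small intestine, 213 in cecum and 240 in large intestine. Adamdec1 fibroblast-like cells held 197, 203, 178, 200, 177 and 214 in the same order, with small and large bowel overlapping. Trophocyte-like cells held 130, 142, 121 and 137, with 52.6 in cecum and 94.0 in large intestine, both below the small intestinal range. LEC-like cells held 5.32 to 11.2 in the small intestine and 15.4 to 19.3 in the large bowel. Immune-like cells held 15.8 to 43.3 in the small intestine, 57.5 in cecum and 64.5 in large intestine, so the trophocyte-like level of the cecum lay below theirs.

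Apcdd1, on the plus strand of chr18:63055302-63094250, was highest in Adamdec1 fibroblast-like cells, as Dkk2 was. It was 342, 318, 206 and 228 CPM in Adamdec1 fibroblast-like cells of the small intestine, 17.5 in cecum and 20.8 in large intestine. Trophocyte-like cells held 126, 115, 124 and 110, then 12.8 and 17.8, and myofibroblast-like cells, at 127 ± 20.0 (SD, n = 4) in the small intestine, lay within their spread. SEMF-like cells held 56.7, 54.3, 46.9 and 50.02, then 8.46 and 6.01. Small and large bowel did not overlap in any of these 4 classes. Immune-like cells held 7.64 to 29.4 in the small intestine, below every SEMF-like value there, and the low barcodes 101 to 135, above every SEMF-like value.

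Notum, the WNT-deacylating enzyme, was found in Ptn fibroblast-like cells, at 25.5, 28.8, 22.7 and 35.0 CPM in the small intestine, 13.8 in cecum and 22.2 in large intestine. These rest on 69, 44, 13, 29, 5 and 82 UMIs. The 4 markers of this class summed to 6977 and 6196 CPM in the proximal libraries. They came to 4614 and 4829 in the distal ones, 2627 in cecum and 3456 in large intestine. With all 4 markers required, 192 and 60 cells were left in the proximal libraries. In the distal libraries 9 and 7 were left, in cecum 0 and in large intestine 5, so the class was less sure outside the proximal libraries. Small intestinal trophocyte-like cells had 19 Notum UMIs in 90189430, a level 130-fold lower (95% interval of the ratio 80.8 to 223, counting error only). The ratio to Adamdec1 fibroblast-like cells, which had 5 UMIs, was 863 (361.9 to 2695). The 7 pericyte markers summed to 2830 to 4641 CPM in small intestinal Ptn fibroblast-like cells, with the pericyte gene Notch3 at 0 to 2.21 CPM. Pericyte-like cells, with Notch3 at 1102 to 1586 CPM in 3 small intestinal libraries, held Notum at 3.22, 3.00 and 0 CPM. The pericyte gate required Notch3, and cells passing it were kept out of the Ptn class. The Notch3 contrast was thus partly set by the gates and does not part the 2 classes by itself. After thinning, 5.04% to 10.0% of Ptn fibroblast-like cells of the small intestine had a Notum UMI, and at most 0.09% of LEC-like cells.

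**Figure D2:**
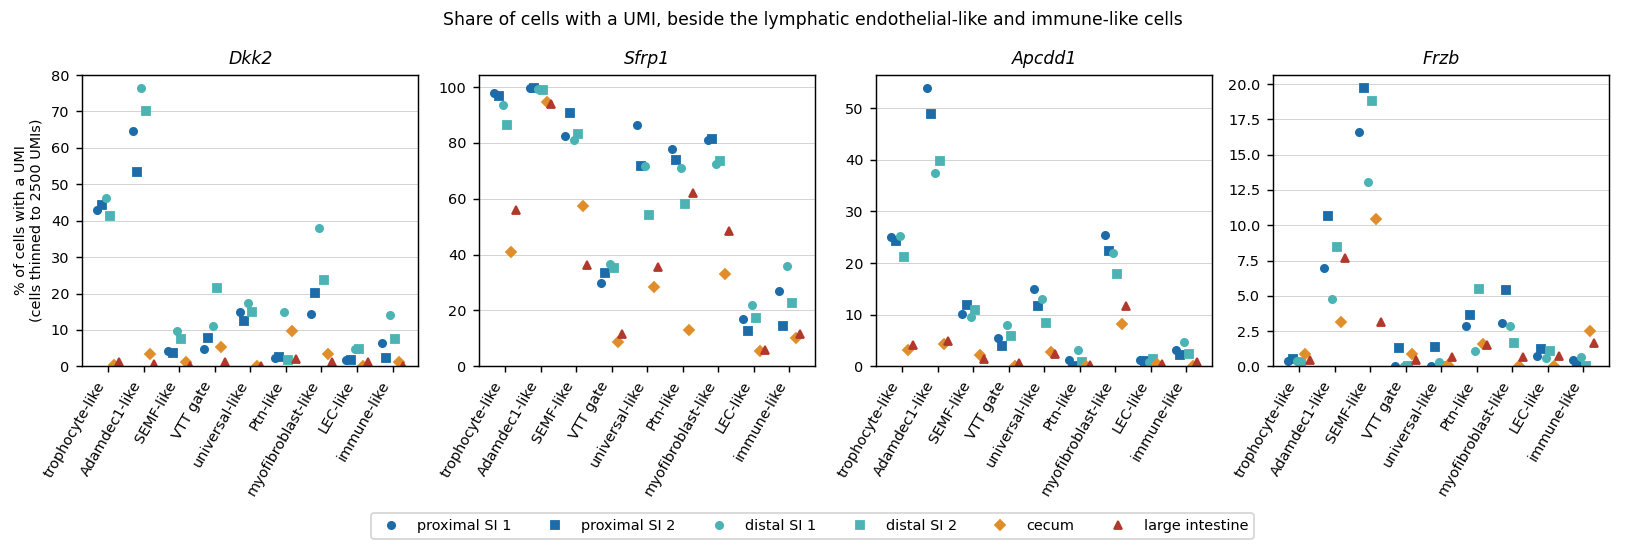
Percent of cells with at least 1 UMI after thinning every cell to 2500 UMIs (vertical axis), for Dkk2, Sfrp1, Apcdd1 and Frzb in 9 cell classes (horizontal axis), with 1 point per library. Dkk2 reached 76.3% of Adamdec1 fibroblast-like cells in the small intestine and at most 3.46% in the large bowel, and Frzb reached 19.7% of SEMF-like cells.

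The first comparison asked how the inhibitors differ between fibroblasts near the crypts and those under the epithelium. In the 4 small intestinal libraries, Dkk2, Sfrp1, Sfrp4 and Apcdd1 were higher and Frzb and Dkk3 lower in trophocyte-like than in SEMF-like cells, 6 of 9 members being past the filter on low counts and all 6 past the threshold. Over all genes tested 63.5% were called, 33.7% higher and 29.8% lower, so such calls were common. The log2 fold change was 3.32 ± 0.25 (SE) for Dkk2 (adjusted p = 3.5e-05, edgeR quasi-likelihood test with Benjamini-Hochberg adjustment over all genes, as below). SEMF-like Dkk2 lay within the immune-like range and above LEC-like cells. The log2 fold change was -5.19 ± 0.10 for Frzb (adjusted p = 2.09e-07, edgeR), with the trophocyte-like side at background. Apcdd1 was higher by 1.51 ± 0.066 (adjusted p = 3.12e-06, edgeR), Sfrp4 by 3.95 ± 0.46 and Sfrp1 by 0.90 ± 0.097, while Dkk3 was lower by 0.68 ± 0.059. The Sfrp1 call was lost when all 6 libraries were fitted (adjusted p = 0.0682, edgeR). Sfrp2, Wif1 and Notum were not tested. The median over the 6 members was 1.21 and over all genes tested 0.018.

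A list of 60 other WNT pathway genes held ligands, R-spondins, receptors, other inhibitors and feedback or target genes. Of these, 23 were higher in trophocyte-like cells, 6 lower, 6 not past the threshold and 25 not tested. The largest increases were in the WNT ligands Wnt11 (log2 fold change 5.46) and Wnt9a (4.36) and in Rspo1, an R-spondin (4.36). The largest decreases were in the ligand Wnt4 (-7.31), the receptor Fzd10 (-3.16) and the transcription factor Tcf7 (-1.76).

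Adamdec1 fibroblast-like cells were compared with trophocyte-like cells in the same 4 libraries. Dkk2 (0.72 ± 0.14, adjusted p = 0.00371, edgeR), Apcdd1 (1.02 ± 0.11), Sfrp1 (0.68 ± 0.075), Dkk3 (0.40 ± 0.038) and Frzb (4.22 ± 0.069) were higher on the log2 scale, and Sfrp4 was lower (-2.25 ± 0.24). The Dkk2 call was lost when all 6 libraries were fitted (0.76, adjusted p = 0.319, edgeR). All 6 tested members were called, against 51.7% of all genes, of which 24.6% were higher and 27.1% lower. In the WNT list 11 genes were higher, 15 lower, 9 not past the threshold and 25 not tested. Fzd10 (2.79), Tcf7 (1.62) and Wnt4 (1.02) led the increases, and Wnt11 (-2.83), the proteoglycan Gpc3 (-2.28) and the ligand Wnt5b (-2.10) the decreases. The gates used Adamdec1 itself to part these classes. They also required a Cd81 UMI of trophocyte-like cells and no Cd81 UMI of Adamdec1 fibroblast-like cells. Of the cells that passed, 3.45% to 7.97% per small intestinal library lay within 1.5-fold of the Adamdec1 limit. Cells between the gates were left out beforehand, so this share does not measure how well the classes part.

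Villus tip telocytes were set against the other subepithelial fibroblasts. VTT-like cells had lower Sfrp1 (log2 fold change -1.12 ± 0.13, adjusted p = 9.85e-05, edgeR) and Frzb (-3.84 ± 0.32) than SEMF-like cells. The Sfrp1 range of VTT-like cells overlapped that of immune-like cells over libraries, though VTT-like cells stood higher within each library. Wif1 had 42 UMIs in VTT-like and 2 in SEMF-like cells, a ratio of 414 (95% interval 108 to 3528, counting error only), and was called. Dkk2 was at 68.1, 66.9, 148 and 236 CPM in VTT-like cells. These values overlapped the immune-like range of 20.3 to 107, though each lay above the immune-like cells of its own library. In SEMF-like cells Dkk2 lay within the immune-like range. Dkk2 was higher in VTT-like cells by 1.00 ± 0.15 (adjusted p = 0.000433, edgeR). That call was lost without doublet removal (0.31, adjusted p = 0.3), without the library block (adjusted p = 0.143) and with graph clusters in place of gates (0.74, adjusted p = 0.247). Dkk3 (-0.24 ± 0.10, adjusted p = 0.141) and Apcdd1 (-0.42 ± 0.25, adjusted p = 0.318) did not pass the edgeR threshold. Apcdd1 was called lower without distal replicate 1 (-0.86, adjusted p = 0.00641, edgeR) and with no filter (adjusted p = 0.0293). Thus 4 of 6 tested members were called, against 19.7% of all genes, 10.4% higher and 9.31% lower. In the WNT list 10 genes were higher, 5 lower, 15 not past the threshold and 30 not tested, led by the ligand Wnt5a (3.63) and the receptors Fzd6 (2.96) and Fzd2 (1.91), and on the lower side by Wnt2b (-1.51), Rspo3 (-1.13) and the ubiquitin ligase Znrf3 (-0.72).

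Universal fibroblast-like cells had lower Dkk2 (log2 fold change -1.90 ± 0.083, adjusted p = 7.99e-09, edgeR), Sfrp1 (-0.92 ± 0.069), Apcdd1 (-1.05 ± 0.094) and Dkk3 (-0.59 ± 0.079) than trophocyte-like cells and higher Sfrp4 (2.79 ± 0.19). Their Dkk2 range overlapped that of immune-like cells over libraries, though they stood higher within each library. Frzb did not pass (0.36 ± 0.46, adjusted p = 0.619, edgeR) other than without doublet removal (1.15, adjusted p = 0.0254). The 6 trophocyte markers summed to 3644 to 4869 CPM in these cells against 4647 to 5226 in trophocyte-like cells. Of all genes, 26.5% were called, 13.4% higher and 13% lower. The WNT list held 6 higher, 16 lower, 11 not past the threshold and 27 not tested. The ligands Wnt10b (5.73), Wnt2 (2.78) and Wnt11 (1.09) were the most increased, and the feedback inhibitor Nkd1 (-1.46), the receptor Fzd5 (-1.19) and Rspo2 (-1.07) the most decreased.

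Myofibroblast-like cells, contractile cells gated on Hhip and genes such as Myh11 and Des, were compared with all fibroblast-like cells. Wif1 was higher (log2 fold change 6.03 ± 0.69, adjusted p = 1.66e-06, edgeR; 5.05 without distal replicate 1, 6.90 without proximal replicate 1 and 4.22 with all 6 libraries, each called) and Dkk3 slightly higher (0.28 ± 0.079, adjusted p = 0.0116, edgeR). Dkk2 (-1.21 ± 0.095), Sfrp1 (-0.60 ± 0.11), Sfrp4 (-1.93 ± 0.50), Frzb (-1.01 ± 0.17) and Apcdd1 (-0.51 ± 0.087) were lower. Notum, tested here, did not pass (-2.54 ± 1.14, adjusted p = 0.108, edgeR) other than with all 6 libraries (-3.31, adjusted p = 0.0174), and 7 of 8 tested members were called against 30.5% of all genes, 14.2% higher and 16.3% lower. The Apcdd1 difference turned when all 6 libraries were fitted (0.081, adjusted p = 0.905), the Sfrp4 call was lost without distal replicate 2 (-1.66, adjusted p = 0.0709) and the Dkk3 and Frzb calls without the library block (0.28, adjusted p = 0.0562, and -0.87, adjusted p = 0.121). In the WNT list 10 genes were higher, 17 lower, 11 not past the threshold and 22 not tested. The receptors Lgr6 (7.28) and Fzd10 (2.64) and Nkd1 (2.30) led the increases, and Rspo1 (-3.40), Wnt11 (-2.73) and Rspo2 (-2.09) the decreases.

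**Figure D3:**
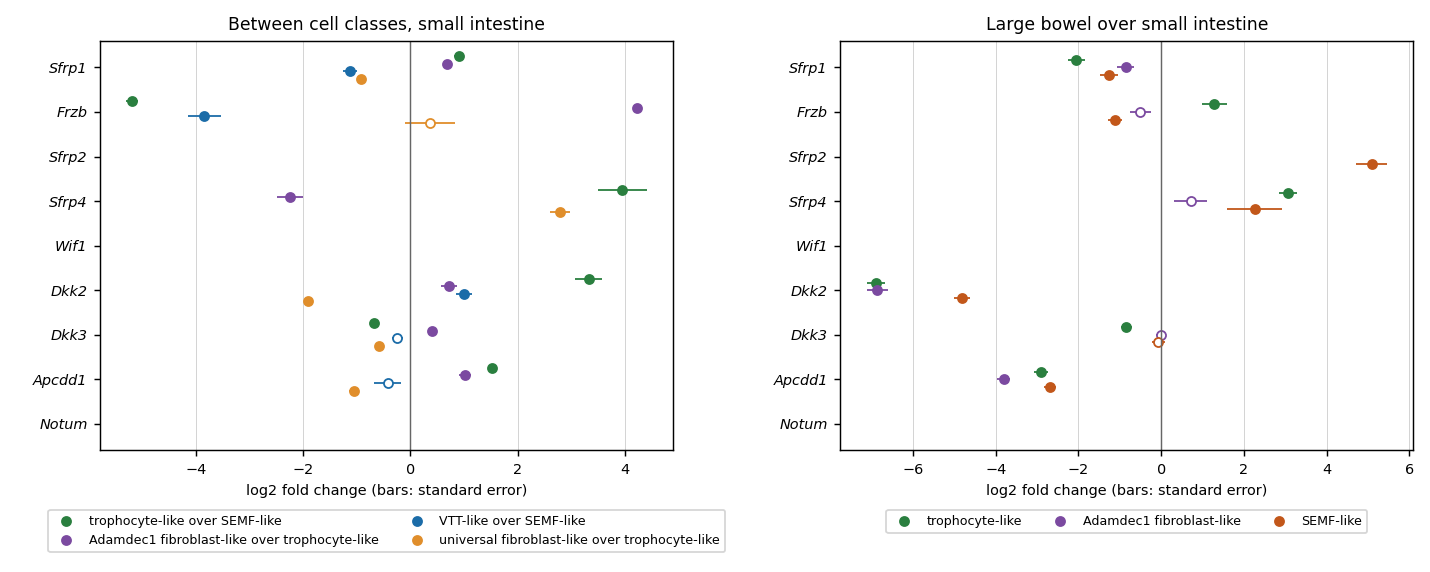
Fitted log2 fold change (horizontal axis, bars are SE) of each inhibitor that was tested, between cell classes of the small intestine (left) and between large bowel and small intestine (right). Filled points passed an adjusted p of 0.05 in edgeR and open points did not, and fits with at most 3 UMIs on a small intestinal side are left out. Dkk2 and Apcdd1 lay left of 0 in all 3 classes on the right, and Frzb lay on opposite sides in trophocyte-like and SEMF-like cells.

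Along the small intestine, the distal libraries were compared with the proximal ones. Without a replicate block, no member passed the edgeR threshold in any of 3 classes, and few genes did. These were 0.188% of all genes in trophocyte-like cells (0.0849% higher and 0.103% lower in the distal libraries), 0.093% in Adamdec1 fibroblast-like cells (0.0523% and 0.0407%) and 0.00608% in SEMF-like cells, all of them higher. In trophocyte-like cells 2 of 7 tested members had an unadjusted p under 0.05 (854 of all 16489 genes), Sfrp1 with a log2 fold change of -0.53 ± 0.20 and Sfrp4 with 0.99 ± 0.29, and limma-voom and DESeq2 called none. Sfrp4 was called in edgeR without proximal replicate 1 (1.49, adjusted p = 0.0442) and with no filter (adjusted p = 0.00206). In Adamdec1 fibroblast-like cells 2 of 7 did (914 of all 17204 genes), Dkk2 with 0.64 ± 0.19 and Apcdd1 with -0.57 ± 0.14, and again neither other tool called any. In SEMF-like cells 1 of 8 did (537 of all 16444 genes), Dkk2 with 1.14 ± 0.16 (adjusted p = 0.19, edgeR), where DESeq2 called it (adjusted p = 0.00738) and limma-voom did not. In edgeR that call was gained without proximal replicate 1 (1.26, adjusted p = 0.00633) and with no filter (adjusted p = 1.19e-06). Free RNA moved with that difference, since the low barcodes of the distal libraries held 489 and 383 Dkk2 CPM against 254 and 187, and its part in the result was not tested. The WNT list had no call in the 3 classes, with 38, 38 and 40 genes tested of 60.

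The comparison of large bowel with small intestine set the mean of cecum and large intestine against the mean of the proximal and distal regions. Each large bowel region had 1 library, taken to vary like the small intestinal ones, and the 3 classes come from the same libraries. In trophocyte-like cells the 8 universal fibroblast markers summed to 904 to 1381 CPM in the small intestine, 2992 in cecum and 3456 in large intestine. Their part in the changes that follow was not tested. In trophocyte-like cells Dkk2 fell by 6.90 on the log2 scale (± 0.23 SE, adjusted p = 1.85e-05, edgeR), Apcdd1 by 2.91 (± 0.17, adjusted p = 6.2e-05), Sfrp1 by 2.05 (± 0.20) and Dkk3 by 0.84 (± 0.13, adjusted p = 0.00393). The small intestinal mean of Dkk2 was 356 times the cecum and 44.3 times the large intestine. The cecal level of 1.28 CPM lay below the 2.22 of LEC-like and 5.89 of immune-like cells there, so the first ratio is against background. Sfrp4 rose by 3.07 ± 0.22 (adjusted p = 0.000135, edgeR) and Frzb by 1.29 ± 0.29 (adjusted p = 0.0166, edgeR), though Frzb, at 3.53 CPM in cecum and 3.74 in large intestine, stayed below the 8.84 and 7.17 of immune-like cells there. Sfrp2 was called higher, and with 1 small intestinal UMI the ratio was 3298 for the cecum (95% interval 589.5 to 130478, counting error only) and 174 for the large intestine (27.2 to 7263). The low barcodes moved the same way, from 187 to 489 CPM to 6.90 in cecum and 3.42 in large intestine for Dkk2. For Apcdd1 they went from 101 to 135 CPM to 11.8 and 8.86, for Sfrp1 from 1203 to 1741 to 487 and 403, and for Sfrp4 from 1.13 to 4.45 to 24.4 and 11.9. In distal replicate 1 the low barcodes lay above the trophocyte-like level of each of these genes. They also did so for Apcdd1 in proximal replicate 1 and for Dkk2 and Sfrp1 in cecum. Their part in these results was not tested, other than that subtraction of 10% free RNA lost none of the calls in this class. It moved Frzb from 1.29 to 8.34 (adjusted p = 0.00453, edgeR). Low barcodes held 16.8 to 29.8 Frzb CPM in the small intestine, where trophocyte-like cells held 1.01 to 2.23. With counts cut off at 0, the subtraction left those cells at or near 0, so the 8.34 cannot be read as a size of change. Thus 3 members were higher and 4 lower of 7 tested, against 14.3% higher and 14.4% lower of all genes. Without the cecum the Dkk3 call was lost (-0.48, adjusted p = 0.108), and Frzb was lost without the cecum (adjusted p = 0.0809), with DESeq2 (adjusted p = 0.0609) and with one marker more per gate (adjusted p = 0.363).

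In the WNT list, trophocyte-like cells had 5 genes higher in the large bowel, 14 lower, 19 not past the threshold and 22 not tested. Rspo2 (-5.49), Tcf7 (-2.30) and the receptor Fzd1 (-1.54) fell most, and Wnt10b (4.78), Wnt2 (1.99) and Wnt4 (1.85) rose most. Rspo2 thus fell in the class in which Dkk2 fell, from a mean of 175 ± 61.7 CPM (SD, n = 4) to 1.03 in cecum and 13 in large intestine.

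In Adamdec1 fibroblast-like cells Dkk2 fell by 6.87 (± 0.26, adjusted p = 3.75e-05, edgeR) and Apcdd1 by 3.81 (± 0.16, adjusted p = 4.9e-05, edgeR). The small intestinal mean of Dkk2 was 38.2 times the cecum and 377 times the large intestine. The level of 2.28 CPM in large intestine lay below the 6.42 of LEC-like cells there, so the second ratio is against background. Sfrp1 fell by 0.86 (± 0.21, adjusted p = 0.0319, edgeR), a call lost when either proximal library was left out (adjusted p = 0.215 and 0.161), without the cecum (0.0826), without the large intestine (0.134) and with one marker more per gate (0.068). Sfrp2 was called higher, with 3 small intestinal UMIs and ratios of 411 for the cecum (95% interval 136 to 2031, counting error only) and 225 for the large intestine (72.6 to 1128), though the cecal level is read as background. The low barcodes held at most 0.176 Sfrp2 CPM in the small intestine, 23.9 in cecum and 2.82 in large intestine, and their part in the Sfrp2 results was not tested. Dkk3 (0.0057 ± 0.12), Sfrp4 (0.71 ± 0.40) and Frzb (-0.51 ± 0.26) did not pass (adjusted p = 0.977, 0.22 and 0.182, edgeR). Frzb was called lower without proximal replicate 1 (-0.61, adjusted p = 0.0449), without distal replicate 1 (-0.66, adjusted p = 0.042) and with no filter (adjusted p = 0.00252), and was -1.06 without the large intestine (adjusted p = 0.0825, edgeR) and 0.068 without the cecum. That made 4 calls in 7 tested members, against 24.1% of all genes (11.4% higher and 12.7% lower), between cells that differed in Vwc2 and Wnt4 as given above. The WNT list had 9 genes higher, 16 lower, 13 not past the threshold and 22 not tested, with Wnt16 (7.19), Wnt4 (5.99) and Wnt2 (4.81) the most increased and Wnt11 (-4.29), Rspo2 (-2.94) and Rspo1 (-1.94) the most decreased.

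The 8 universal fibroblast markers summed in SEMF-like cells to 524 to 840 CPM in the small intestine, 1618 in cecum and 2500 in large intestine. The 7 VTT markers summed to 381 to 431, 619 and 1222, and the 10 SEMF markers to 3076 to 3855, 3314 and 3989. The part of other-class markers in the changes below was not tested. In SEMF-like cells Apcdd1 fell by 2.70 (± 0.14, adjusted p = 6.86e-05, edgeR). Its level in low barcodes, as given for trophocyte-like cells, was above the SEMF-like level in each library. Dkk2 fell by 4.82 (± 0.20, adjusted p = 3.05e-05, edgeR), from a level not told apart from immune-like cells, so that the fall in free RNA stands beside it. Sfrp1 fell by 1.26 (± 0.22, adjusted p = 0.00675) and Frzb by 1.12 (± 0.17, adjusted p = 0.00366), with free Sfrp1 above the SEMF-like level in 3 of 4 small intestinal libraries, and both calls were lost without the large intestine (-0.78, adjusted p = 0.0918, and -0.52, adjusted p = 0.114, edgeR). Sfrp2 rose by 5.09 ± 0.37 (adjusted p = 0.000231, edgeR; 3.50 without the cecum and 6.68 without the large intestine), to levels below those of the low barcodes in both large bowel libraries. Sfrp4 rose by 2.26 ± 0.67 (adjusted p = 0.0367, edgeR), from at most 0.590 to 1.20 CPM at most, a call lost with DESeq2 (adjusted p = 0.157), without distal replicate 2 (0.0773), without the cecum (0.0727) and without the large intestine (0.112). Immune-like cells held 2.95 CPM of Sfrp4 in cecum and 2.69 in large intestine, so the SEMF-like level there is read as background. Wif1 (4.26 ± 1.40, adjusted p = 0.0587) and Dkk3 (-0.072 ± 0.16, adjusted p = 0.735) did not pass in edgeR. Wif1 was called with limma-voom (3.44, adjusted p = 0.016), and in edgeR with no filter (adjusted p = 0.0254), with one marker more per gate (adjusted p = 0.0264) and without the cecum (6.65, adjusted p = 0.00396). There were 6 calls in 8 tested members, against 38% of all genes (20.7% higher and 17.3% lower). The WNT list had 18 genes higher, 9 lower, 13 not past the threshold and 20 not tested. The transcription factor Lef1 (8.86) and the ligands Wnt16 (8.40) and Wnt6 (4.98) rose most, and Rspo3 (-3.14), Fzd10 (-2.46) and Wnt2b (-1.63) fell most.

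**Figure D4:**
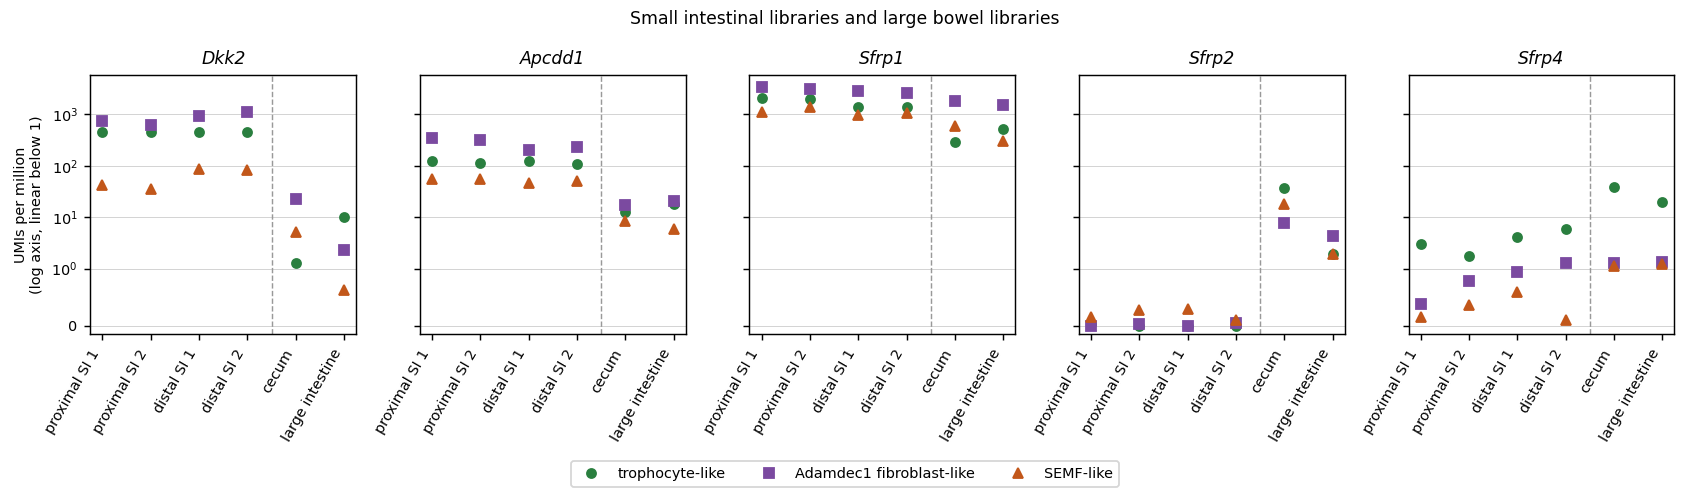
CPM (vertical log axis, linear below 1) of Dkk2, Apcdd1, Sfrp1, Sfrp2 and Sfrp4 in each library (horizontal axis), with 1 point per cell class and a dashed line between small intestine and large bowel. Dkk2 and Apcdd1 lay lower, and Sfrp2 higher, in both large bowel libraries than in any small intestinal library in all 3 classes.

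Whether the crypt-side against subepithelial difference itself differed between large bowel and small intestine was tested as an interaction over all 6 libraries. Of 7 tested members 3 passed, against 18% of all genes (8.89% in the positive and 9.14% in the negative direction). The difference between trophocyte-like and SEMF-like cells was smaller in the large bowel for Frzb, by 2.28 ± 0.32 on the log2 scale (adjusted p = 0.00414, edgeR), where Frzb was -5.19 in the small intestine, with trophocyte-like Frzb at background in both bowels. After subtraction of 10% free RNA the Frzb value was 9.36 (adjusted p = 0.0133, edgeR). As above, that left small intestinal trophocyte-like Frzb at or near 0, so the 9.36 cannot be read as a size. It was more negative for Dkk3, by -0.74 ± 0.15 (adjusted p = 0.0173, edgeR), and more positive for Sfrp2, by 4.33 ± 1.06 (adjusted p = 0.0293, edgeR). The Sfrp2 value rests on 1 UMI in trophocyte-like and 12 in SEMF-like cells of the small intestine, and its call was lost in 5 of 6 fits that left out a library (adjusted p up to 0.0998). Dkk2 (-2.18 ± 1.23, adjusted p = 0.255), Sfrp1 (-0.76 ± 0.42, adjusted p = 0.245), Sfrp4 (0.86 ± 0.82, adjusted p = 0.505) and Apcdd1 (-0.17 ± 0.22, adjusted p = 0.626) did not pass in edgeR. Without the large intestine Dkk2 (-4.96, adjusted p = 0.0101) and Sfrp1 (-1.59, adjusted p = 0.0054) passed. Without the cecum they were 0.87 and 0.072, so for Dkk2 and Sfrp1 the direction rested on which large bowel library was used. The WNT list had 3 genes higher, 11 lower, 27 not past the threshold and 19 not tested. Rspo3 (2.14), Znrf3 (0.78) and Wnt4 (0.73) were on the positive side, and Lef1 (-7.57), Wnt6 (-4.87) and Wnt5b (-3.50) were the most negative.

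UMIs of several inhibitors were often found in the same cell in several fibroblast classes of the small intestine. In small intestinal Adamdec1 fibroblast-like cells 89.0% to 91.8% had UMIs of 3 or more of the 9 genes, against 18.0% in cecum and 30.9% in large intestine, at the cells' own depth. The small intestinal share was 64.4% to 74.0% in trophocyte-like, 48.9% to 66.6% in SEMF-like and 37.2% to 51.5% in universal fibroblast-like cells. VTT-like cells held 14.9% to 35.3% and Ptn fibroblast-like cells 12.9% to 33.6%. No share expected from the single genes was set beside these. In the same count, LEC-like cells reached 0.684% to 1.61% and immune-like cells 3.43% to 19.6% in the small intestine. In the large bowel LEC-like cells reached 0.851% in cecum and 0.375% in large intestine, and immune-like cells 8.75% and 5.83%. Over 67 sums of 13 classes by library, the level of Sfrp1 went with that of Apcdd1 (Pearson r = 0.79 of log2 levels) and that of Dkk2 with Apcdd1 (0.74), and Dkk2 went against Sfrp2 (-0.54). These sums share libraries and classes, so the r values are descriptions.

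Among 14675 genes, those whose levels were most like each member over the same 67 sums were as follows. For Dkk2 they were Tmem132c (0.83), Vwc2 (0.83), itself a marker of the Adamdec1 gate, and Rspo2 (0.79). For Sfrp1 they included the receptor Fzd1 (0.92) and A530020G20Rik (0.87), and for Apcdd1 they were Acss3 (0.87), Shisa3 (0.85) and Gabra3 (0.84). Dkk3 was most like Plekhh2 (0.93), Ptk7 (0.93) and Clmp (0.92). Frzb was most like the growth factor receptor Fgfr2 (0.80), Ano5 (0.77) and Gm4265 (0.73), and Sfrp2 like Hoxc10 (0.83), Ccn5 (0.76) and Serf2 (0.70). Sfrp4 was most like 1700019D03Rik (0.85), Ugdh (0.85) and Gm12796 (0.84). Wif1 was most like Cacna2d3 (0.85), Htr1f (0.82) and Smoc1 (0.82), and Notum like Nell1 (0.96), the neurotensin receptor Ntsr1 (0.96) and Ptpn20 (0.95).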

How the data were processed

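Gene expression was measured by 10x Genomics 3′ single-cell sequencing of sorted tdTomato+ cells in 6 libraries. The deposited matrices hold raw UMI counts for all barcodes, made by the authors with Cell Ranger (8.1.0 in the submitters' processing notes, 8.0.1 in the matrix headers) on mm39. The authors' later filtering, ambient correction and doublet removal are not in these counts.

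Cells with 1000 to 7500 genes, 2500 to 40000 UMIs and at most 10% mitochondrial UMIs were kept, and doublets were removed by simulated doublets (scanpy 1.11.5). Marker gates gave the classes, with limits set after cell counts were seen. Of the fibroblast-like cells, 21.7% to 23.8% in the small intestine, 35.2% in cecum and 23.2% in large intestine passed no class gate. They were counted only among all fibroblast-like cells. UMIs were summed per library and class (at least 50 cells, a minimum not applied in the alternatives) and tested with edgeR 4.0.16 (quasi-likelihood, TMM, filterByExpr with a minimum count of 10, Benjamini-Hochberg at 0.05, library as block between classes), after the code was tested on simulated data. Class comparisons used the 4 small intestinal libraries and region comparisons all 6. Alternatives were limma-voom (limma 3.58.1), DESeq2 1.42.0, no filter, subtraction of free RNA, stricter gates, no doublet removal, no library block, graph clusters and each library left out. R was 4.3.3 and Python 3.11.15.

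The members, the WNT list and the tests were chosen with earlier results of these data known. Text names the 9 members, the 3 genes most correlated with each (log2 of CPM plus 1), and up to 3 called genes per direction of the WNT list; 1 of the correlated genes is not reported here. Intervals are exact at 95% and cover counting error only. Hashtag reads were used only to compare levels within libraries, and separate mice could not be told apart.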

Additional observations from a re-analysis of the deposited data

Results flagged for a closer look

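The difference between trophocyte-like and SEMF-like cells itself differed between large bowel and small intestine for 3 of 7 tested inhibitors, by the test of that difference in edgeR, against 18% of all genes. For Frzb it was 2.28 on the log2 scale (adjusted p = 0.00414), for Dkk3 it was -0.74 (adjusted p = 0.0173) and for Sfrp2 it was 4.33 (adjusted p = 0.0293). Leaving out each library in turn gave 1.82 to 2.94 for Frzb and -0.98 to -0.50 for Dkk3, and each kept its call (highest adjusted p = 0.0151 and 0.0481, edgeR). The Sfrp2 value ran from 3.499 to 5.87 and passed in 1 of those 6 fits. Both sides of the Frzb difference moved, by 1.29 in trophocyte-like and -1.12 in SEMF-like cells. Trophocyte-like cells held 1.01 to 2.23 CPM of Frzb in the small intestine, 3.53 in cecum and 3.74 in large intestine. LEC-like cells held 2.61 to 5.00, 2.22 and 1.28, and immune-like cells 1.25 to 4.37, 8.84 and 7.17. The SEMF-like level of Frzb was 60.3 to 86.9 in the small intestine, 46.8 in cecum and 20.1 in large intestine. Trophocyte-like Dkk3 was 52.6 CPM in cecum and 94.0 in large intestine. Immune-like cells there held 57.5 and 64.5 CPM of Dkk3, and low barcodes 116 and 166. As given above, Grem1 was also lower in trophocyte-like cells of the large bowel. Each large bowel region had 1 library, and the part of region and of library cannot be told apart.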

How the results depend on the processing

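Counts of genes called between distal and proximal small intestine depended most on the method. In trophocyte-like cells 31 genes were called, 90 with DESeq2, 371 with no filter and 36 to 117 with a library left out. In Adamdec1 fibroblast-like cells 16 were called, 8 with limma-voom, 143 with DESeq2, 498 with no filter and 8 to 167 with a library left out. In SEMF-like cells 1 was called, 0 with limma-voom, 39 with DESeq2, 253 with no filter, 0 after subtraction of free RNA and 0 to 202 with a library left out. With the replicate number as a block, in a fit of the small intestinal libraries alone, these became 442, 705 and 362. That fit called Dkk2 in SEMF-like cells (adjusted p = 2.4e-09), Apcdd1 in Adamdec1 fibroblast-like cells (-0.57, adjusted p = 0.041) and Sfrp4 in trophocyte-like cells (1.02, adjusted p = 0.016, edgeR). The block was added and the large bowel libraries dropped together, so the part of each was not tested. The labels do not say that a number marks shared mice or a shared day. Same-numbered libraries carried the same set of 3 hashtags, and the deviations of the 2 pairs correlated at 0.276, 0.447 and 0.422 in the 3 classes. Without the library block the Adamdec1 and trophocyte-like comparison called 4710 genes in place of 8261, and the universal and trophocyte-like one 1709 in place of 3455.

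Between large and small bowel, one marker more per gate gave 2558 in place of 4738 genes in trophocyte-like cells, where 315 cecal and 395 large intestinal cells were left. It gave 431 in place of 4152 in Adamdec1 fibroblast-like cells, where 42 and 37 large bowel cells were left. Leaving out a library gave 1893 to 6787, 1408 to 6335 and 3739 to 7341 genes in trophocyte-like, Adamdec1 fibroblast-like and SEMF-like cells (6255 with all), the lowest without the cecum in the first 2 (1893 and 1408) and without the large intestine in the last, and 1669 to 2817 in place of 2998 for the interaction.

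Under the alternatives 952 fold changes of members kept direction and side of the threshold, 28 lost and 21 gained a call, and 35 changed sign. The single called value that changed sign was Apcdd1 in myofibroblast-like against all fibroblast-like cells (0.081 with all 6 libraries). The others had not passed. Frzb in universal against trophocyte-like cells became -0.17 with clusters and -0.34 with all 6 libraries. Between distal and proximal trophocyte-like cells, Dkk2 became -0.0085 with limma-voom, -0.0086 with DESeq2, -0.074 after free RNA subtraction and -0.073 to 0.076 with a library left out, and Apcdd1 0.011 with one marker more and -0.19 to 0.097 with a library left out. In Adamdec1 fibroblast-like cells Sfrp2 became -0.32 with limma-voom, -0.50 after free RNA subtraction and -2.23 to 2.58 with a library left out. In SEMF-like cells Sfrp4 became 0.30 with DESeq2, 0.72 without doublet removal, 0.65 with one marker more and -1.32 to 1.15 with a library left out, Sfrp2 -1.04 to 0.46 with a library left out and Apcdd1 0.026 without doublet removal. Between large and small bowel in Adamdec1 fibroblast-like cells, Dkk3 became -0.025 with no filter, -0.015 after free RNA subtraction, -0.097 with one marker more and -0.099 to 0.13 with a library left out, Sfrp4 -4.88 after free RNA subtraction and Frzb -1.06 to 0.068 with a library left out, the latter without the cecum, while in SEMF-like cells Dkk3 became -0.17 to 0.031 with a library left out. In the interaction, leaving out a library gave -4.96 (without the large intestine) to 0.87 (without the cecum) for Dkk2, -1.59 to 0.072 for Sfrp1 and -0.56 to 0.23 for Apcdd1, with the same libraries at each end, and Apcdd1 became 0.017 without doublet removal and 0.13 with one marker more. Member levels moved by more than the spread between libraries in 23 cases and by less in 148, and shares of cells moved in 48 of the cases when cells were not thinned and by less than the spread in 15. The cause of these changes was not tested. Levels under about 1 CPM rest on a few UMIs, and 1 library per large bowel region limits every statement on cecum and large intestine.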
